A study of Heliconius melpomene cythera and Heliconius melpomene rosina with 32 samples.

Results

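In the pupal wings of *Heliconius melpomene*, 4 annotated genes had levels that did not overlap between the subspecies cythera and rosina. This held at both stages of development and in both wing regions, with 1 rosina-labelled individual that groups with cythera left out. The genes were chosen by their measured levels. Annotated rows of the count table needed a mean of at least 1 CPM (counts per 1000000 counts of the library) in each subspecies. All 16 cythera libraries also had to lie above, or all below, 14 rosina libraries. Of 30720 rows, 18137 carried an annotated gene ID, 8271 of these reached the minimum level, and 4 met the rule. With the left-out individual counted as rosina, 0 annotated rows did. MSTRG.2104, MSTRG.21826 and MSTRG.23964 were higher in cythera, and MSTRG.11065 was lower. These were 0.0363% and 0.0121% of the annotated rows at the minimum level. As the subspecies comparison selected the genes, their levels in cythera and rosina are given as a description with no test.

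The cythera butterflies are iridescent and come from Western Ecuador, whereas the rosina butterflies are matt black in the corresponding wing areas and come from Panama. Both were captive populations kept at 25°C on *Passiflora biflora*, with no other treatment. There were 4 individuals of each subspecies at 50% and 4 at 70% of pupal development, and each gave 2 RNA libraries, from the anterior hindwing (AH) and from the forewing pooled with the posterior hindwing (FP). Each group held 2 females and 2 males, except that all 4 rosina individuals at 70% were male. Individuals are numbered here 1 to 4 (cythera, 50%), 5 to 8 (rosina, 50%), 9 to 12 (cythera, 70%) and 13 to 16 (rosina, 70%), in the order of the samples. Library totals ranged from 20151439 to 45570497 counts, with a median of 30597159. The rule left out both libraries of individual 13, which is labelled rosina but groups with cythera, so that 15 of the 16 individuals remained. The study states that it removed 1 mislabelled rosina individual, and its number is not given in the sources used here.

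Iridescence in *Heliconius* is a structural colour. It arises from layered ridges on the surface of the wing scales, which take shape in the pupa as each scale cell grows out and lays down cuticle around bundles of actin. None of the 4 genes carries a gene name, and none of their IDs was found in the RefSeq gene table, so no role, position or sequence is given for them. MSTRG.2104 is annotated as HMEL033177g1, MSTRG.23964 as HMEL012106g1 and MSTRG.21826 as HMEL034491g1. MSTRG.11065 joins 2 annotated genes, HMEL030759g1 and HMEL030760g1, and its level cannot be divided between them. In whole wing tissue, fewer cells that express a gene and less RNA per cell cannot be told apart.

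All 4 genes were expressed at modest levels. Their mean over the 30 libraries was above that of 24.8% to 30.5% of the annotated rows that reached the minimum, whose median was 17.2 CPM. Among the genes higher in cythera, MSTRG.2104 had the largest fold difference and the widest gap between the subspecies. Its level was 11.7 ± 4.65 CPM in cythera (SD, n = 16 libraries of 8 individuals) and 2.1 ± 1.05 CPM in rosina (SD, n = 14 libraries of 7 individuals), a ratio of means of 5.57. These SDs span both stages and both wing regions, and the libraries of an individual are not independent. The cythera libraries ran from 5.29 to 21.7 CPM with a median of 11.4, and the rosina libraries from 0.392 to 4.03 CPM with a median of 1.74.

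Within cythera, MSTRG.2104 differed more between individuals than between the wing regions of an individual. At 50% its AH levels in individuals 1 to 4 were 8.16, 8.30, 16.4 and 12.3 CPM, and those of FP were 8.10, 5.29, 16.1 and 11.2 CPM. At 70% individuals 9 to 12 had 12.8, 12.9, 7.63 and 21.7 CPM in AH and 11.6, 9.88, 5.87 and 18.6 CPM in FP. Individuals 3 and 12 were therefore the highest of their stage in both regions. In rosina at 50%, individuals 5 to 8 had 2.13, 1.74, 2.50 and 3.69 CPM in AH and 1.42, 1.52, 3.72 and 4.03 CPM in FP. In rosina at 70%, individuals 14 to 16 had 1.67, 1.55 and 1.12 CPM in AH and 2.13, 1.74 and 0.392 CPM in FP. Individual 16 gave the lowest value in each region at that stage. The ratio of cythera to rosina means was 4.49 and 3.80 at 50% and 9.49 and 8.10 at 70%, in AH and in FP respectively.

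MSTRG.21826 had a level of 13.0 ± 4.35 CPM in cythera (SD, n = 16 libraries) against 3.78 ± 1.5 CPM in rosina (SD, n = 14 libraries), a ratio of means of 3.43. In cythera at 50%, individuals 1 to 4 had 7.01, 12.3, 14.1 and 13.8 CPM in AH and 6.45, 9.86, 13.9 and 11.2 CPM in FP. In cythera at 70%, individuals 9 to 12 had 16.5, 12.2, 11.2 and 22.4 CPM in AH and 16.3, 10.5, 9.34 and 20.3 CPM in FP. Individual 1 was the lowest cythera individual in both regions, and individual 12 the highest. In rosina at 50%, individuals 5 to 8 had 2.02, 5.65, 4.37 and 5.99 CPM in AH and 0.712, 3.96, 4.96 and 5.58 CPM in FP, with individual 5 the lowest in both. In rosina at 70%, individuals 14 to 16 lay closer together, with 3.28, 2.87 and 4.12 CPM in AH and 3.58, 3.33 and 2.46 CPM in FP. The ratio of means was 2.62 and 2.72 at 50% and 4.55 and 4.52 at 70%, in the same order of regions.

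MSTRG.23964 had the smallest difference between the subspecies and the least spread among the cythera libraries. Its level was 9.15 ± 1.36 CPM in cythera (SD, n = 16 libraries) and 4.20 ± 1.04 CPM in rosina (SD, n = 14 libraries), a ratio of means of 2.18. The highest cythera library was 1.76 times the lowest, against 4.11 times for MSTRG.2104, 3.48 times for MSTRG.21826 and 3.97 times for MSTRG.11065. In cythera at 50%, individuals 1 to 4 had 8.11, 11.9, 10.6 and 9.13 CPM in AH and 8.76, 7.81, 8.85 and 9.48 CPM in FP. In cythera at 70%, individuals 9 to 12 had 9.46, 11.0, 8.82 and 8.18 CPM in AH and 7.75, 10.7, 6.78 and 9.04 CPM in FP. The 2 stages overlapped in both regions. In rosina at 50%, individuals 5 to 8 had 3.59, 4.54, 4.60 and 5.71 CPM in AH and 2.52, 3.48, 3.72 and 5.14 CPM in FP. In rosina at 70%, individuals 14 to 16 had 6.23, 3.86 and 4.90 CPM in AH and 4.05, 3.42 and 3.00 CPM in FP. On this scale each of these 7 individuals had the lower value in FP. The ratio of means was 2.16 and 2.35 at 50% and 1.87 and 2.45 at 70%.

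MSTRG.11065 was the only gene of the 4 that was lower in cythera. With CPM also scaled for library composition, it did not meet the rule. Its level was 4.13 ± 1.38 CPM in cythera (SD, n = 16 libraries) and 12.5 ± 3.26 CPM in rosina (SD, n = 14 libraries), so that the rosina mean was 3.02 times the cythera mean. In cythera at 50%, individuals 1 to 4 had 3.82, 4.78, 3.19 and 2.55 CPM in AH and 2.46, 1.51, 2.42 and 4.74 CPM in FP. In cythera at 70%, individuals 9 to 12 had 5.87, 5.98, 4.52 and 4.95 CPM in AH and 4.92, 4.96, 3.60 and 5.78 CPM in FP. The 2 stages overlapped in each region, with the lowest values at 50%. In rosina at 50%, individuals 5 to 8 had 15.0, 11.9, 17.3 and 6.04 CPM in AH and 15.2, 8.96, 13.7 and 12.2 CPM in FP. Individual 8 thus had an AH value close to the cythera range and a value in its other library near the rosina mean. In rosina at 70%, individuals 14 to 16 had 8.00, 16.7 and 13.9 CPM in AH and 12.3, 10.3 and 12.7 CPM in FP. The rosina mean was 3.51 and 4.50 times the cythera mean at 50%, and 2.42 and 2.44 times at 70%.

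**Figure D1:**
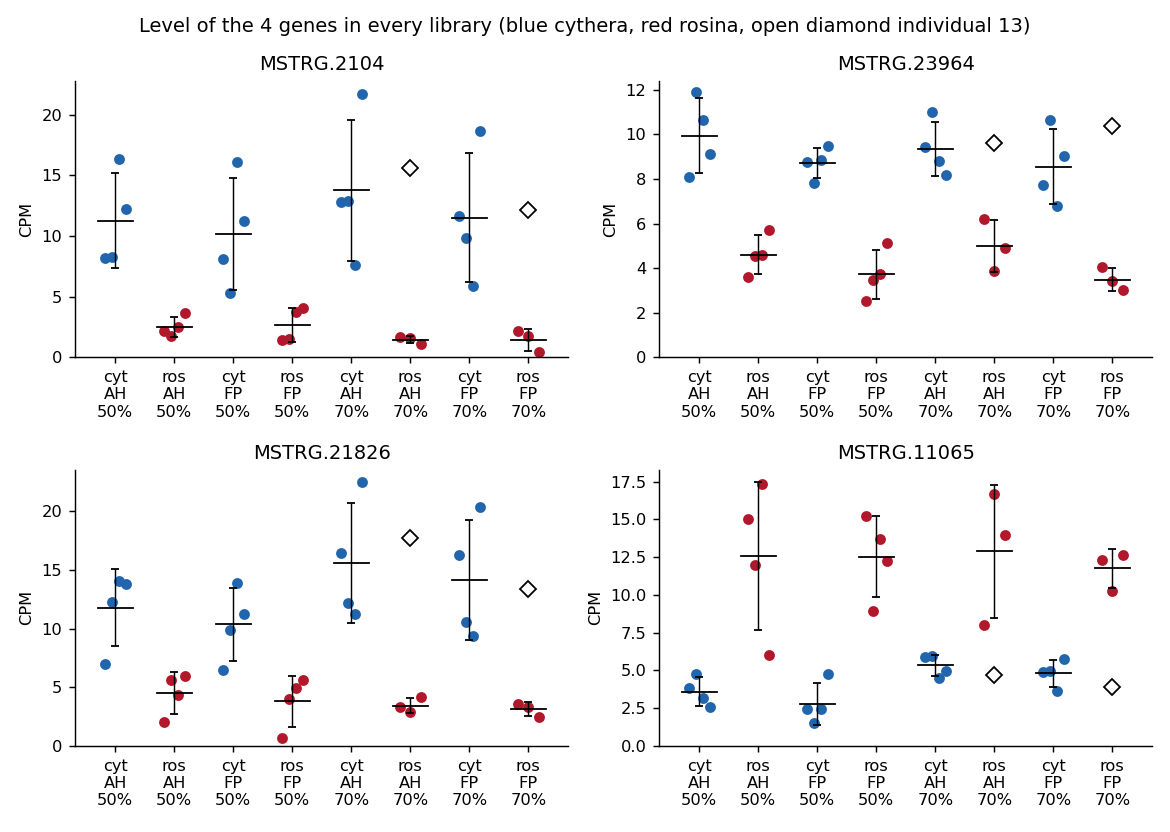
Level (CPM, linear axis from 0) of each of the 4 genes in every library, grouped by subspecies (cyt, cythera, blue; ros, rosina, red), wing region (AH and FP) and stage; lines and bars are the mean and SD without individual 13 (n = 4, or 3 for rosina at 70%), and open diamonds mark individual 13. The subspecies do not overlap in any panel once individual 13 is set apart, and the 8 diamonds fall within the cythera range of their gene.

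The subspecies were separated by narrow margins. For MSTRG.2104 the nearest libraries were FP of cythera individual 2, at 5.29 CPM from 214 counts, and the same region of rosina individual 8, at 4.03 CPM from 91 counts. Their exact 95% Poisson intervals, which cover counting error only, were 4.60 to 6.04 and 3.24 to 4.95 CPM, and overlapped. For MSTRG.23964 the nearest libraries had 6.77 CPM (5.87 to 7.77, FP of cythera individual 11) and 6.23 CPM (5.36 to 7.19, AH of rosina individual 14). For MSTRG.21826 they had 6.45 CPM (5.74 to 7.23, FP of cythera individual 1) and 5.99 CPM (5.30 to 6.75, AH of rosina individual 8). The narrowest margin was that of MSTRG.11065, with 6.04 CPM in AH of rosina individual 8 (5.34 to 6.79, from 275 counts) and 5.98 CPM in that of cythera individual 10 (5.10 to 6.97, from 163 counts). The intervals of the nearest libraries overlapped in 4 of 4 genes, which does not by itself show that the libraries had the same level. A library of individual 8 stood at the border in 3 of the 4.

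**Figure D2:**
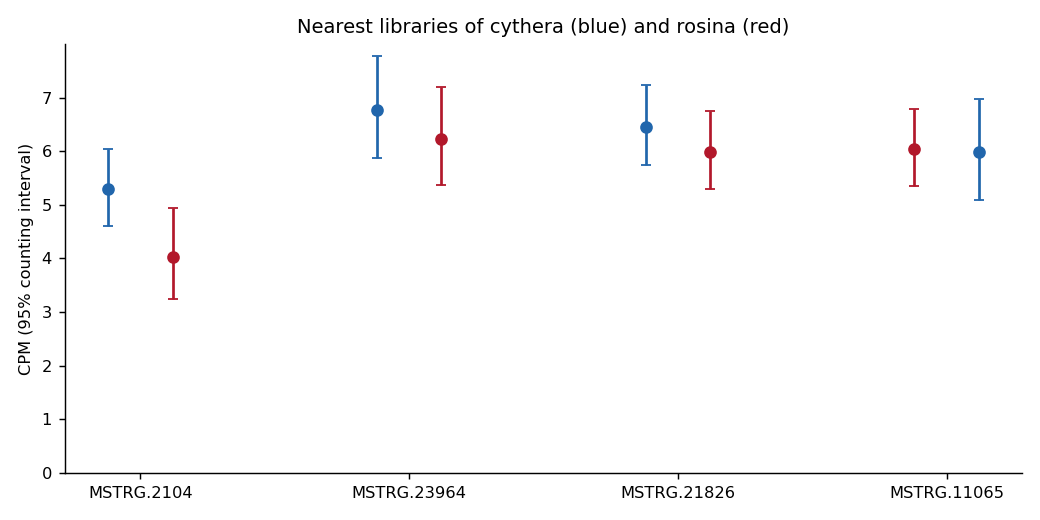
Level (CPM, linear axis from 0) of the cythera (blue) and the rosina (red) library that lie nearest to each other, for each of the 4 genes, with the exact 95% Poisson interval of the count in that library. The intervals of each pair overlap, and the points of MSTRG.11065 differ least (6.04 and 5.98 CPM).

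Over the mean of the 2 libraries of each individual, margins can only stay equal or widen, so their sizes are given as a description. The lowest cythera individual had 1.75 times the level of the highest rosina individual for MSTRG.2104, 1.44 times for MSTRG.23964 and 1.16 times for MSTRG.21826. For MSTRG.11065 the lowest rosina individual (9.13 CPM) had 1.67 times the level of the highest cythera individual (5.47 CPM). The gene with the narrowest margin between libraries was thus second only to MSTRG.2104 when individuals were compared.

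Individual 13 was left out of the rule because it groups with cythera, so that its place in these genes, which were chosen to set cythera apart, is a description. Its levels in AH and in FP were 15.6 and 12.1 CPM for MSTRG.2104, 17.7 and 13.3 CPM for MSTRG.21826, 9.61 and 10.4 CPM for MSTRG.23964, and 4.70 and 3.91 CPM for MSTRG.11065. Of these 8 values, 8 lay within the range of the cythera libraries and 0 within that of the rosina libraries. With individual 13 counted under its label, 0 annotated rows met the rule. With it counted with cythera, the same 4 did.

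The values just outside the rule show how it was met. Of annotated rows that separated the subspecies, 21 fell under the minimum level, 4 higher and 17 lower in cythera. Nearest below were MSTRG.24281, which joins HMEL035264g1 and HMEL035265g1, with means of 0.805 CPM in cythera and 5.59 CPM in rosina, and MSTRG.21218, annotated as HMEL017486g2, with 0.691 and 2.64 CPM. Nearest above the minimum were MSTRG.2104 and MSTRG.21826, whose rosina means were 2.1 and 3.78 CPM. A further 14 annotated rows at the minimum, 3 higher and 11 lower in cythera, would have met the rule but for 1 library. The closest of these, named here after their values were seen, were MSTRG.23662 (HMEL012543g1), with means of 19.7 CPM in cythera and 32.5 CPM in rosina, and MSTRG.21343 (HMEL034385g1), with 6.00 and 9.49 CPM. Another 31 rows needed 2 libraries to be left out, and 170 needed 5.

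The 4 genes stand in a larger set once fewer libraries are used, which by construction keeps rows that separate all of them. When only the libraries of 50% were used, 157 of 8044 annotated rows at the minimum (1.95%) separated the subspecies, of which 29 were higher and 128 lower in cythera. Only the libraries of 70% gave 146 of 8096 (1.8%), of which 58 were higher and 88 lower. AH alone gave 35 of 8287 (0.422%), of which 6 were higher and 29 lower, and FP alone gave 26 of 8211 (0.317%), of which 11 were higher and 15 lower. Sums of both libraries per individual, a choice added after seeing the data, gave 32 of 8272 rows (0.387%), of which 8 were higher and 24 lower. In each of these sets, which hold the 4 genes, most rows were lower in cythera. Whether the split of the 4 genes, 3 higher and 1 lower, differs from that of the sets was not tested. With fewer values in a comparison, fewer have to lie apart. How many of these rows separate by chance was not tested. With CPM scaled by TMM (edgeR's normalization for library composition), 5 rows were separated. These kept 3 of the 4 and lost MSTRG.11065, and added MSTRG.21343 and MSTRG.25938. Of the rows with no annotated ID, 1612 reached the same minimum and 10 were separated, 3 higher (0.186%) and 7 lower (0.434%) in cythera.

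**Figure D3:**
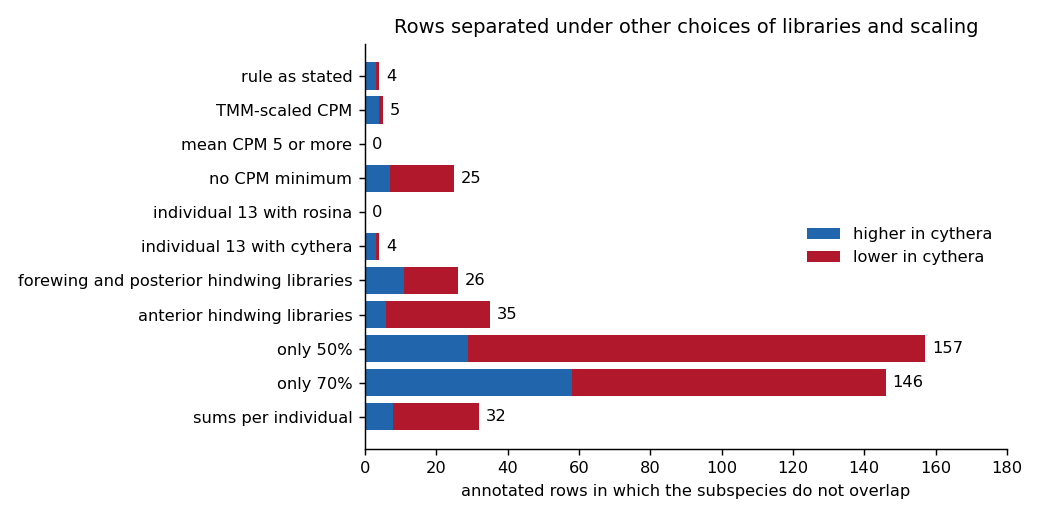
Number of annotated rows in which cythera and rosina libraries do not overlap (linear axis from 0), under the rule as stated and under other choices of scaling, level, individual 13 or libraries, with rows higher in cythera in blue and lower in red. The rule as stated gave 4, the libraries of 50% alone 157, those of 70% alone 146, and individual 13 counted with rosina 0.

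The change from 50% to 70% was not itself used by the rule, but a gene whose stages differ widely against the gap between the subspecies could not meet it, so the share called is not comparable with that of all genes. It was tested on counts summed per individual over 15 individuals, averaged over subspecies. By edgeR's quasi-likelihood test, 34.7% of 19146 genes changed with stage at an FDR under 0.05. Of the 4 genes 0 did. An unadjusted p under 0.05 was found for 8224 of the 19146 genes and for 1 of the 4. This was MSTRG.11065, with a log2 difference of 0.40 (SE 0.16, 95% interval 0.07 to 0.74) and an edgeR FDR of 0.062. DESeq2 called the same gene and none of the other 3 (FDR 0.038), and edgeR called it when individual 4, 5, 7, 11 or 14 was left out. Over all genes DESeq2 called 7563, and edgeR called 6072 to 6792 with each individual left out in turn. Over 24 alternatives its FDR ran from 0.034 to 0.59. The log2 differences of the others were 0.11 (-0.49 to 0.71) for MSTRG.21826, 0.05 (-0.23 to 0.33) for MSTRG.23964 and -0.25 (-0.87 to 0.38) for MSTRG.2104. The median of the 4 was 0.08, against -0.03 over all genes tested, whose interquartile range was -0.75 to 0.62.

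The values of MSTRG.11065 by individual show where the 2 stages were apart. The means of cythera individuals were 2.80 to 3.65 CPM at 50% and 4.06 to 5.47 CPM at 70%, with no overlap. All cythera individuals at 70% lay above those at 50% in 19.2% of the annotated rows at the minimum level, and in 1 of the 4 genes. In rosina the stages overlapped, at 9.13 to 15.5 CPM and 10.2 to 13.5 CPM. Since rosina at 70% held males only, stage and sex are partly confounded there. With sex as a term the log2 stage difference of MSTRG.11065 was 0.37 (edgeR FDR 0.095), and in males only it was 0.17 (FDR 0.59).

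Whether the subspecies difference itself changed between stages was tested as an interaction. This test is not fully independent of the choice of genes, which required one direction at both stages. By edgeR, 0 of the 4 genes and 0.0104% of all genes (2 of 19146) passed an FDR under 0.05. At an unadjusted p under 0.05 there were 0 of the 4 genes and 1447 of the 19146. DESeq2 called 0 of the 4, against 253 genes. The log2 ratio of cythera to rosina was higher at 70% by 1.04 for MSTRG.2104 (SE 0.59, 95% interval -0.22 to 2.30), by 0.72 for MSTRG.21826 (-0.49 to 1.93) and by 0.60 for MSTRG.11065 (-0.08 to 1.27), and differed by -0.17 for MSTRG.23964 (-0.74 to 0.40). For MSTRG.11065 a positive value means a smaller difference between the subspecies at 70%. None of these intervals excluded 0, and they leave room for changes of more than 1 log2 unit in 3 of the 4 genes. Since rosina at 70% held males only, sex is partly confounded with this interaction. With sex as a term it was 0.78 for MSTRG.2104, 0.47 for MSTRG.21826, 0.69 for MSTRG.11065 and -0.31 for MSTRG.23964. In males only the values were 0.70, -0.07, 0.68 and -0.59, in the same order.

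The wing regions were compared within individuals, with the individual as a block. On CPM, the level in FP was below that in AH in 45 of the 60 values of a gene in an individual (75%), against 61.5% over the 8271 annotated rows at the minimum. With TMM scaling, added after seeing the data, it was below in 38 of 60 (63.3%), against 49.2% over those rows. On CPM it was higher in 3 of 15 individuals for MSTRG.23964 and for MSTRG.21826, in 4 of 15 for MSTRG.2104 and in 5 of 15 for MSTRG.11065. The mean log2 ratio of FP to AH, without TMM, was -0.28 ± 0.27 for MSTRG.23964, -0.25 ± 0.43 for MSTRG.21826, -0.20 ± 0.49 for MSTRG.2104 and -0.16 ± 0.67 for MSTRG.11065 (SD, n = 15 individuals). The widest ratios were those of MSTRG.11065, from -1.67 in cythera individual 2 to 1.02 in rosina individual 8.

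By edgeR's quasi-likelihood test of wing region, 0 of the 4 genes had an FDR under 0.05 at either stage. Over all 18841 genes, 0.796% did at 50% and 1.4% at 70%. A gene whose regions differ widely against the gap between the subspecies could not meet the rule, so these shares are not comparable. At an unadjusted p under 0.05 there were also 0 of the 4, against 1999 genes at 50% and 2205 at 70%. DESeq2 called 0 of the 4, against 693 and 782 genes. MSTRG.23964 came nearest, with a log2 difference of -0.18 at 50% (SE 0.09, 95% interval -0.37 to 0.01, FDR 0.50) and -0.18 at 70% (SE 0.10, -0.38 to 0.03, FDR 0.52). For the other 3 genes the log2 differences were -0.21 to -0.02 at 50% and -0.11 to 0.03 at 70%. The medians of the 4 were -0.15 and -0.06, against -0.03 and -0.02 over all genes tested.

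The iridescent and the matt black subspecies were also compared in how far their wing regions differed. This test too is not fully independent of the choice of genes, which required one direction in both regions. For this interaction edgeR called 0 of the 4 genes and 0% of the 18841 genes tested, of which 736 had an unadjusted p under 0.05, among them 0 of the 4. DESeq2 called 17 genes and 0 of the 4. The log2 region difference in cythera minus that in rosina was 0.17 for MSTRG.23964 (95% interval -0.11 to 0.45), -0.004 for MSTRG.21826 (-0.41 to 0.40), -0.23 for MSTRG.2104 (-0.67 to 0.21) and -0.38 for MSTRG.11065 (-1.02 to 0.27).

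Sex was compared at 50%, the stage at which both subspecies had 2 females and 2 males. By edgeR's quasi-likelihood test, 0 of the 4 genes and 0.0947% of 19000 genes (18) differed at an FDR under 0.05. A gene whose sexes differ widely against the gap between the subspecies could not meet the rule, so these shares are not comparable. At an unadjusted p under 0.05 there were 0 of the 4 genes and 1403 of the 19000. DESeq2 called 0 of the 4, against 459 genes. MSTRG.11065 had the largest log2 difference of male minus female, 0.41 (SE 0.19, 95% interval -0.04 to 0.85, FDR 0.70). Its individual means were 9.13 and 10.5 CPM in rosina females and 15.1 and 15.5 CPM in rosina males, and 2.80 and 3.14 CPM in cythera females and 3.15 and 3.65 CPM in cythera males. The males lay above the females in each subspecies, widely apart in rosina and next to each other in cythera, and these groups of 2 were not tested apart. The other 3 genes had log2 differences of -0.37 (MSTRG.21826), -0.30 (MSTRG.2104) and -0.22 (MSTRG.23964), with intervals that included 0.

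**Figure D4:**
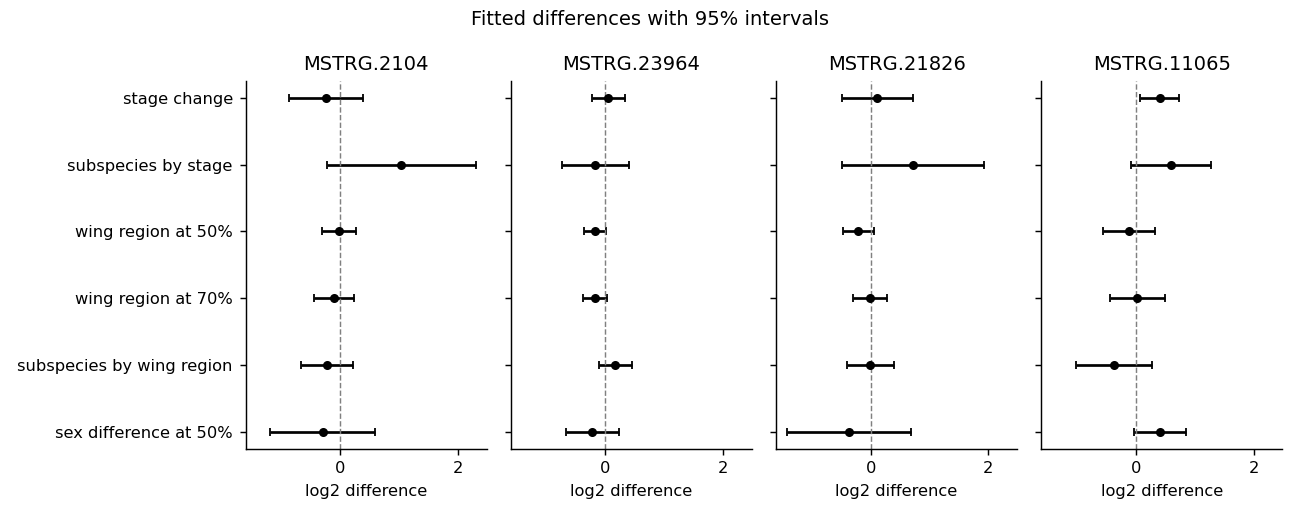
Fitted log2 differences (points) with 95% intervals (bars) of the 4 genes in 6 comparisons of stage, wing region and sex, from edgeR. All 6 use libraries that chose the genes. Stage, region or sex differences that are wide against the gap between the subspecies could not meet the rule. Both interactions draw on the values that chose the genes. Signs are 70% minus 50%, cythera minus rosina for both interactions, FP minus AH, and male minus female. Of the 24 intervals, only that of MSTRG.11065 for the stage change (0.07 to 0.74) lies clear of 0.

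Correlations of the log2 of individual means were computed after seeing the data. They covered the 6 pairs of genes in 8 cythera and in 7 rosina individuals, 12 in all. The rule drew on these levels and limits the range of each gene within a subspecies, so the p-values are given as a description. CPM was used without TMM scaling, and the permutations moved individuals across stages. The highest rank correlation was that of MSTRG.2104 and MSTRG.21826 in cythera. It had a Pearson's r of 0.78 (exact permutation p = 0.022, adjusted over 12 relations 0.17) and a Spearman's rho of 0.90 (exact permutation p = 0.0046, adjusted 0.055). Its r was 0.73 without the 2 individuals farthest from the median of MSTRG.21826, and 0.78 within stages. In rosina, MSTRG.21826 and MSTRG.23964 had an r of 0.77 (exact permutation p = 0.041, adjusted 0.17) and a rho of 0.86 (exact permutation p = 0.024, adjusted 0.14). The r was 0.04 without the 2 individuals farthest from the median of MSTRG.21826, so it depends on them, though leaving them out also narrows the range. Within stages, with all 7 individuals, it was 0.78. MSTRG.23964 and MSTRG.11065 had an r of -0.78 in rosina (exact permutation p = 0.036, adjusted 0.17) and a rho of -0.64 (exact permutation p = 0.14, adjusted 0.42). Their r was -0.54 without the 2 individuals farthest from the median of MSTRG.23964. None of the 12 passed the correction.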

How the data were processed

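RNA-seq of 32 libraries from 16 *H. melpomene* individuals was analysed. Libraries were made with a TruSeq Stranded mRNA kit. The values the authors deposited are raw counts of reads for each gene, whole and not scaled for library size. Per the labels, Trimmomatic 0.38, HISAT2 2.1.0, SAMtools 1.9, StringTie 1.3.5 and edgeR were used. The genome build, the counting program and its strand setting are not given in the sources used here. Reads of overlapping or antisense genes, or of near-identical copies, may therefore be shared between rows. No columns of the table were left unused. Of the row IDs, 0 matched the RefSeq table of assembly ASM5695672v1.

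CPM was the count per 1000000 counts of the library total. Members and lists were chosen with earlier results of these data known. Named were all 4 members, and the 2 separated rows nearest below the minimum of 1 CPM in each subspecies. Gaps between nearest libraries were ranked on log2 values with an offset of 0.1 CPM.

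Tests ran in R 4.3.3 with edgeR 4.0.16 (quasi-likelihood F-test in its earlier form, TMM, filterByExpr with a minimum count of 10) and limma 3.58.1. FDR values are p-values adjusted by Benjamini and Hochberg's method across the whole table tested, with a threshold of 0.05. Stage and sex were tested on counts summed per individual. Wing regions were tested with individual as a block, as both libraries of one number are of the same animal by label. The deviations of these pairs from their group means correlated at 0.626 to 0.841 (median 0.699, 15 pairs). Scripts were tested on simulated data. Alternatives were DESeq2 1.42.0, RLE size factors, no filter, a newer quasi-likelihood fit, individual 13 under its label, each wing region alone, sex as a term, males only, no block, and leaving out 1 individual at a time. For the rule they were TMM scaling, 5 CPM, no minimum and subsets of the libraries, and after seeing the data sums per individual and individual 13 counted with cythera. Members had 14 to 716 counts per library. Precision at these counts is given by exact 95% Poisson intervals, computed in Python 3.11.15 with SciPy 1.17.1.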

Additional observations from a re-analysis of the deposited data

Results flagged for a closer look

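The libraries of individual 13, labelled rosina at 70%, stood far above the other 3 of their group in 5 of the 8 groups of 4 libraries that hold it, by Dixon's test at the 95% level. Chance gives about 1 in 20 groups, but is no comparison here, since the individual was set aside for grouping with cythera and the genes were chosen to separate cythera from the other rosina libraries. In the other 24 groups 0 libraries stood apart. In the anterior hindwing these were MSTRG.21826 at 17.7 CPM and MSTRG.2104 at 15.6 CPM. In the forewing and posterior hindwing they were MSTRG.21826 at 13.3 CPM, MSTRG.23964 at 10.4 CPM and MSTRG.2104 at 12.1 CPM. The individual was left out of the rule and of the main tests.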

How the results depend on the processing

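The number of genes that met the rule was 4. It was 0 with a minimum of 5 CPM, since each gene has a mean under 5 CPM in one subspecies, and 0 with individual 13 counted with rosina. It was 25 with no minimum, 26 in the forewing and posterior hindwing alone, 35 in the anterior hindwing alone, 157 at 50% alone, 146 at 70% alone and 32 with sums per individual. Leaving out each individual in turn gave 4 to 10 genes, which hold the 4 by construction. The count was 4 without individual 5 and without individual 14, 10 without individual 10, and 7 to 9 without individual 1, 3, 6, 11, 15 or 16.

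DESeq2 called 1 of the 4 genes for the stage change (MSTRG.11065), and leaving out each individual gave 0 to 1. It was 1 without individual 4, 5, 7, 11 or 14, and the FDR of MSTRG.11065 ran from 0.034 to 0.59 over 24 alternatives. In the 5 other comparisons, 0 of the 4 genes were called under any alternative run. With individual 13 under its label, the log2 difference changed sign for MSTRG.2104 in the stage change (0.59), for MSTRG.21826 and MSTRG.2104 in subspecies by stage (-0.20 and -0.61), and for MSTRG.21826 in subspecies by wing region (0.0363). Males only gave -0.0691 for MSTRG.21826 in subspecies by stage. DESeq2 gave 0.00435 for MSTRG.2104 in wing region at 50% and 0.00485 for MSTRG.21826 at 70%, where RLE size factors gave 0.00691. The cause was not tested. With each individual left out in turn, the sign also varied for MSTRG.21826 (-0.0354 to 0.21) and MSTRG.23964 (-0.0120 to 0.13) in the stage change, for MSTRG.2104 (-0.11 to 0.058) and MSTRG.11065 (-0.34 to 0.0616) in wing region at 50%, for MSTRG.21826 (-0.10 to 0.12), MSTRG.2104 (-0.23 to 0.10) and MSTRG.11065 (-0.11 to 0.18) in wing region at 70%, and for MSTRG.21826 (-0.13 to 0.0897) in subspecies by wing region.

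Without the replicate block, the log2 difference of MSTRG.2104 in wing region at 50% was 0.0250, and calls over all genes fell from 150 to 11 at 50% and from 264 to 13 at 70%. No call on the 4 genes changed. Over all genes DESeq2 called 7563 for stage (main count 6652), 693 and 782 for wing region and 17 for subspecies by wing region. It called 253 for subspecies by stage (main count 2) and 459 for sex (main count 18). Individual 13 under its label gave 409 for wing region at 70% and 2 for subspecies by wing region, as did RLE size factors there. Males only gave 3826 for stage (main count 6652) and 0 for subspecies by stage, where the newer fit gave 4, and the sex term, the anterior hindwing, the forewing and posterior hindwing, and individual 13 under its label gave 0 to 1. Leaving out each individual gave 81 to 199 and 69 to 296 for wing region, 0 to 1 for subspecies by wing region, 0 to 8 for subspecies by stage and 7 to 30 for sex. The counting intervals of the nearest libraries overlap for each gene, which limits the rule.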
